A study of Mus musculus with 16 samples.

Results

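Fibroblasts of the adult mouse heart were compared with and without Tcf21 in the absence of injury, in 6 of the 16 libraries of the series. All 6 came from mice aged 8 to 12 weeks that had received tamoxifen and whose cells were isolated 2 weeks later by flow cytometry, using an enhanced green fluorescent protein reporter at Rosa26 that Cre switches on. The 3 control libraries have the genotype Tcf21-MerCreMer, and the 3 loss libraries have Tcf21-MerCreMer:Tcf21-fl, so tamoxifen, the inducible Cre and the reporter are shared by both groups, which differ by the floxed Tcf21. The reporter was used for sorting and the Cre is labelled Tcf21-MerCreMer, so the comparison covers cells of the Tcf21 lineage and not every fibroblast of the heart. RNA was amplified with an ultra-low-input kit, and levels are normalized counts, here reported on the scale of the deposited table. The labels number the libraries without saying that they came from separate mice, so the p-values measure the spread between these libraries, which may be partly technical.

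The protein Tcf21 is a transcription factor of the basic helix-loop-helix class, which binds E-box motifs as a dimer with an E-protein. In the embryonic epicardium it is needed for cardiac fibroblasts to form, and in the adult heart it marks resting fibroblasts and their lineage. It also acts in the mesenchyme of lung, kidney and other organs during development.

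Tcf21 itself checks the labels. The gene lies on the minus strand of mouse chromosome 10 at 22817281 to 22820174 (GRCm38). It stood at 7825, 8081 and 7507 normalized counts in the controls and at 1244, 1254 and 1718 in the loss libraries. Both groups were tight and far apart, and every loss library was below every control. The mean was 5.56-fold lower with loss, a log2 difference of -2.49 (SE 0.13, n = 3 and 3, adjusted p = 4.22e-05, limma with Benjamini-Hochberg adjustment over all genes tested), and the difference ran from -2.64 to -2.41 when each library was left out in turn. What remained averaged 1405 ± 271 (SD, n = 3). The sources used here do not say which exon is flanked by loxP sites, so the remaining signal cannot be divided between intact and deleted transcripts.

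The antisense transcript across the same locus moved the other way. Gm10824, a 2-exon antisense RNA annotated on the plus strand at 22815749 to 22823330, spans Tcf21, and its exons overlap no Tcf21 exon. It was named after its values were seen. Its levels were 19.9, 24.5 and 27.0 in the controls and 87.9, 158 and 199 with loss, with no overlap between the groups. Gm10824 rose by 2.52 on the log2 scale (SE 0.39, adjusted p = 0.0144, limma), and it passed the test in 3 of the 6 fits that each leave out 1 library. Whether reads were assigned by strand is not given in the sources used here, and the level is low, so reads of the 2 strands cannot be told apart at this locus. Of the 48 other genes tested within 5 Mb of Tcf21, Gm10824 alone rose and 3 fell (8.33% called), including Hebp2, which binds heme and stood at 606, 648 and 483 against 348, 360 and 364. Across chromosome 10 without Tcf21, 12 of 691 genes rose and 12 fell.

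With Tcf21 included, 557 of 15544 genes tested passed an adjusted p of 0.05 in limma, which is 3.58% of them. Of these, 253 rose (1.63% of genes tested) and 304 fell (1.96%). More than 2-fold changes were found in 70 of the genes that rose and 96 of those that fell, and more than 4-fold changes in 29 and 41. The median change of a called gene was 0.62 on the log2 scale for rises and 0.70 for falls, so most calls are of moderate size. For comparison, the groups did not overlap in 14.1% of tested genes with loss higher and in 13.6% with loss lower, and the median log2 difference of all tested genes was -0.01. An unadjusted p below 0.05 (limma) was reached by 3290 of the 15544 genes, 1578 higher and 1712 lower with loss. Counts of list members at that level, given below, are to be read against this share.

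**Figure D1:**
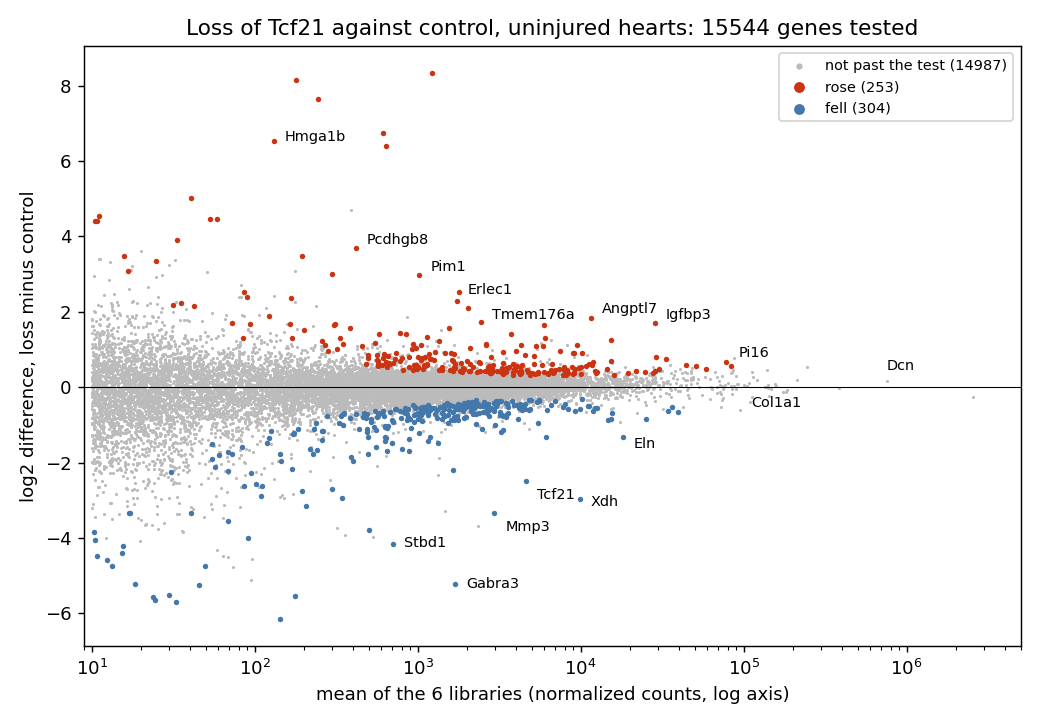
Mean level over the 6 libraries (horizontal, normalized counts, log axis) against the log2 difference of loss minus control (vertical) for the 15544 genes tested. Red points rose (253) and blue points fell (304) at an adjusted p of 0.05 in limma; the changes of Tcf21, Xdh, Mmp3 and Eln stand out at high level, while Dcn and Col1a1 lie near 0. Predicted genes of the largest rises are plotted and not labelled.

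The number of calls depended on the libraries kept. The controls resembled each other more closely (Pearson r between libraries of a group averaged 0.983 to 0.984) than the loss libraries did (0.947 to 0.954). Each loss library correlated slightly less with its own group than with the controls. Its r with the controls averaged 0.949, 0.960 and 0.959 for loss libraries 1, 2 and 3. Loss library 1 stood farthest from the rest. It listed 1022 genes at 0, against 638 and 585 in the other loss libraries and 268 to 301 in the controls, although the totals of the 6 libraries lay between 37746463 and 38970531. Without loss library 1 the calls numbered 891. Without loss library 2 or 3 they numbered 388 and 458, and without control library 1, 2 or 3 they numbered 109, 103 and 88, where the pair that is left is assumed to vary like the other group. A set of 67 genes (36 that rose and 31 that fell) passed in all 6 of these fits, and that number of fits is given below for the genes the text turns on.

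The largest falls are described first, among called genes with a mean of at least 50 normalized counts. Gabra3, a subunit of the ionotropic GABA receptor on the X chromosome, stood at 3134, 3819 and 2911 in the controls and at 32.8, 112 and 174 with loss. Its loss values are thus a few percent of the control values in every library, and the log2 difference was -5.23 (SE 0.50, adjusted p = 0.00137, limma). Stbd1, which anchors glycogen to membranes, fell from 1666, 987 and 1377 to 65.6, 72.1 and 81.9, a log2 difference of -4.15 (SE 0.22, adjusted p = 4.3e-05, limma). Both passed in all 6 leave-one-out fits.

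Xdh, the xanthine dehydrogenase that makes uric acid, was the most abundant of these genes. Its levels were 18555, 17563 and 16690 in the controls and 1882, 2205 and 2734 with loss, a 7.74-fold lower mean (log2 difference -2.97, SE 0.13, adjusted p = 4.22e-05, limma). Adora1, the adenosine A1 receptor, stood at 120, 184 and 170 against 39.9, 39.5 and 19.8, a log2 difference of -2.27 (SE 0.37, adjusted p = 0.0193, limma) that passed in 3 of 6 leave-one-out fits. Of 23 tested purine genes, these 2 fell and 1 rose, the salvage enzyme Aprt (850, 805 and 836 against 1041, 1221 and 1230, log2 difference 0.48, adjusted p = 0.0488, limma). The 5'-nucleotidase Nt5e, which makes adenosine outside the cell, did not pass (577, 830 and 728 against 1135, 696 and 1302, adjusted p = 0.243, limma).

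Mmp3, the matrix metalloproteinase stromelysin, was also among the strongest falls. It stood at 6216, 4112 and 5728 in the controls and at 410, 385 and 871 with loss, a 9.64-fold lower mean (log2 difference -3.35, SE 0.29, adjusted p = 0.000895, limma; all 6 leave-one-out fits). Mmp3 was the only one of 25 tested matrix proteases and inhibitors that passed. The other genes in this set of 15 were H2-Bl, Dipk1c, Kif21a, Srbd1, Gper1, Eps8l1, Csf2rb2, Rtl9 and Padi4. Kif21a, a kinesin motor, had 342, 340 and 322 in the controls and 73.8, 25 and 63.4 with loss, and Gper1, the membrane oestrogen receptor, had 110, 133 and 96.1 against 21.6, 21.0 and 27.6. H2-Bl belongs to a family of near-identical class I genes, so its fall (255, 71.5 and 186 against 15.8, 2.85 and 12.5) may be affected by how reads were shared among them.

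**Figure D2:**
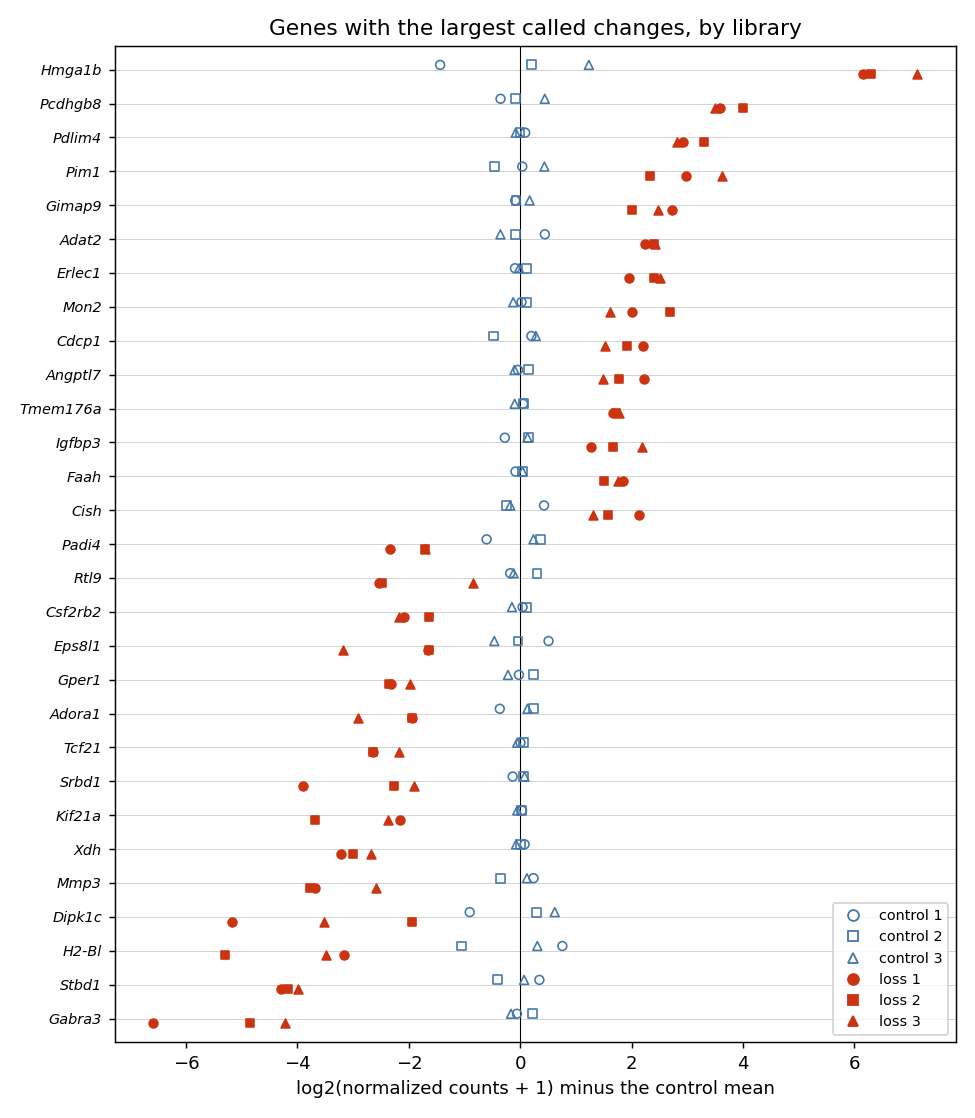
Largest called rises (14 genes) and falls (15 genes) among genes with a mean of at least 50 normalized counts and a standard symbol, by library. Each point is log2(normalized counts + 1) in 1 library minus the mean of the 3 controls; open blue symbols are controls and filled red symbols are loss libraries, with the same symbol shape for the same library number. The groups do not overlap for any gene shown, which their choice requires, and loss library 1 is lowest for Gabra3 and Srbd1.

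Among the largest rises, Angptl7, an angiopoietin-like secreted protein, had the highest level after Igfbp3. It stood at 4877, 5554 and 4671 in the controls and at 23401, 17073 and 14066 with loss, a 3.61-fold higher mean (log2 difference 1.82, SE 0.17, adjusted p = 0.00105, limma). Igfbp3, which binds insulin-like growth factors, rose from 10802, 14491 and 14319 to 31700, 41334 and 59623 (3.35-fold, log2 difference 1.71, SE 0.21, adjusted p = 0.00584, limma). The loss values of Igfbp3 span a wide range, and its lowest loss value lies above the highest control value by more than the whole spread of the controls. Both genes passed in all 6 leave-one-out fits. Of 17 tested genes of the insulin-like growth factor axis, 2 rose, Igfbp3 and Igfbp6 (12547, 11821 and 10973 against 19204, 19903 and 17617, log2 difference 0.68, adjusted p = 0.00515, limma), and 0 fell, while Igf1 itself stood at 7492, 8314 and 8025 against 9046, 7258 and 8408 (adjusted p = 0.809, limma).

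Tmem176a, a membrane protein of the MS4A-related family, gave the tightest of these rises. It stood at 1174, 1175 and 1057 in the controls and at 3599, 3749 and 3885 with loss (log2 difference 1.72, SE 0.09, adjusted p = 4.22e-05, limma). Its neighbour and partner Tmem176b, named after its values were seen, stood at 3015, 2942 and 2778 against 8233, 9487 and 9496 (log2 difference 1.64, adjusted p = 4.22e-05, limma). The 2 genes thus moved by nearly the same amount, and each passed in all 6 leave-one-out fits.

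The remaining large rises include genes of cytokine signalling and of trafficking. Pim1, a kinase induced by cytokine signalling, stood at 221, 156 and 292 against 1710, 1092 and 2682 (log2 difference 2.98, adjusted p = 0.00342, limma). Cish, a feedback inhibitor of cytokine receptors, stood at 58.4, 36.3 and 38 against 193, 131 and 109 and passed in 1 of 6 leave-one-out fits. Erlec1, an endoplasmic reticulum lectin, rose 4.95-fold, from 547, 635 and 575 to 2276, 3093 and 3329 (log2 difference 2.29, adjusted p = 0.000177, limma), and Pdlim4, an actin-associated adaptor, rose from 68.7, 64.3 and 60.9 to 494, 645 and 458. The other named rises were Hmga1b, Pcdhgb8, Gimap9, Adat2, Mon2, Cdcp1 and Faah.

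Some of these rises are in families whose members share sequence. Hmga1b, a near-copy of Hmga1, stood at 0, 2.13 and 5.36 in the controls and at 192, 213 and 378 with loss. Hmga1 itself moved in the opposite direction without passing (602, 502 and 488 against 424, 303 and 113, log2 difference -1.11, adjusted p = 0.167, limma), so the assignment of reads between the 2 genes is uncertain. The clustered protocadherins also differed among themselves: Pcdhgb8 stood at 45.2, 54.7 and 79.2 against 706, 945 and 665. Of other members of that cluster, named after their values were seen, Pcdhgb5 rose by 1.44 on the log2 scale, Pcdhga1 rose by 0.97, Pcdhga3 fell by 1.49 and Pcdhgc3 differed by 0.09 (adjusted p = 0.567, limma). These variants share their last exons, so reads there cannot be assigned to 1 of them with certainty.

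Promoter sequences of 4 of the genes above are shown because an E-box, CANNTG on either strand, is the motif that a Tcf21 dimer is known to bind. They are from RefSeq (GRCm38.p6), hold the 250 bases before the start annotated there, read 5′ to 3′ on the strand of the gene, and carry each CANNTG in capitals. In GENCODE M21 Tmem176a starts at 48840919, so its window lies inside the gene by that annotation.
Gabra3 (chrX:72656920-72657169, minus strand): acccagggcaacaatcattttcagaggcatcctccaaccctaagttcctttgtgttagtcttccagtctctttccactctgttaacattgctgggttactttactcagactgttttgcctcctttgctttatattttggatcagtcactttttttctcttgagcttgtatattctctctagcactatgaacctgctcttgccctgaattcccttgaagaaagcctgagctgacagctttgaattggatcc
Mmp3 (chr9:7445572-7445821, plus strand): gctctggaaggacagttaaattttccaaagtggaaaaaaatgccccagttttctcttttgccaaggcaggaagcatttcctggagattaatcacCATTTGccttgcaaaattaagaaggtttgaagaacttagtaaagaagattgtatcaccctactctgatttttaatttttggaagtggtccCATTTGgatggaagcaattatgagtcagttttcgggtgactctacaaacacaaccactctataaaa
Angptl7 (chr4:148500463-148500712, minus strand): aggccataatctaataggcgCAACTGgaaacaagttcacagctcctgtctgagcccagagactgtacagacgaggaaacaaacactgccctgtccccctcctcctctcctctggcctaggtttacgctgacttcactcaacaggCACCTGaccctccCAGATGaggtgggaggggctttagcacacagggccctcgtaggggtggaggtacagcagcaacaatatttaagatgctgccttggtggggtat
Tmem176a (chr6:48841233-48841482, plus strand): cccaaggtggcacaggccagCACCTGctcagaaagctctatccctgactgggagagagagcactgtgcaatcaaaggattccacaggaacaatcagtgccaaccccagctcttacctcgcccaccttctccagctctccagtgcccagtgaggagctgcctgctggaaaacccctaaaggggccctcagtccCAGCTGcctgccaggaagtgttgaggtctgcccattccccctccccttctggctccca
The window of Gabra3, the largest of the falls, holds 0 E-boxes and that of Mmp3 holds 2. The windows of the 2 genes that rose hold 3 for Angptl7 and 2 for Tmem176a, of which 1 in Tmem176a is the palindrome CAGCTG. Both motifs read the same on the 2 strands, and the palindrome is counted as an E-box too. Of the 11761 tested genes with a RefSeq promoter, 57.6% held at least 1 CANNTG in these 250 bases and 12.1% a CAGCTG. Among genes that rose the shares were 58.4% and 10.3% of 185, and among genes that fell 53.7% and 11.0% of 218. These are counts of letters in a short window, and they say nothing of binding.

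The E-proteins Tcf3, Tcf4 and Tcf12, which dimerize with Tcf21, differed by -0.02, 0.06 and 0.09 on the log2 scale, with adjusted p of 0.917, 0.74 and 0.599 (limma). Id1 to Id4, which sequester E-proteins, and the related factors Twist1, Twist2, Hand2, Msc, Scx and Tcf15 did not pass either. Of the 18 tested factors of this list, 3 fell and 0 rose, the falls being Tcf21 and the Notch effectors Heyl and Hes1. Heyl was the most abundant of the latter 2, at 19716, 19350 and 19972 in the controls and 12006, 10702 and 10448 with loss (log2 difference -0.83, SE 0.08, adjusted p = 0.00112, limma; all 6 leave-one-out fits). Hes1 stood at 3709, 2918 and 3436 against 2345, 2378 and 2154 (log2 difference -0.54, adjusted p = 0.0309, limma), and passed in 2 of 6 such fits. Hey1 and Hey2, of the same family, did not pass (adjusted p of 0.772 and 0.0924, limma).

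Notch and Hedgehog genes held the most falls of any list. Of 26 tested, 6 fell and 0 rose, and their median log2 difference was -0.12. The receptor Notch1 stood at 1107, 1306 and 1193 against 602, 804 and 826 (log2 difference -0.70, adjusted p = 0.039, limma). The Hedgehog pathway members that fell were the repressor-forming factor Gli3 (1969, 2400 and 2576 against 1337, 1644 and 1458), the co-receptor Gas1 and the glypican Gpc3. Gas1 is among the most abundant genes called, at 45471, 41034 and 41924 against 31082, 29184 and 28343 (log2 difference -0.54, SE 0.08, adjusted p = 0.0123, limma). Gpc3 stood at 2561, 2316 and 2693 against 1352, 1370 and 1631 (log2 difference -0.80, adjusted p = 0.00802, limma). Gli1, the usual readout of Hedgehog activity, did not pass and lay slightly higher with loss (344, 400 and 336 against 410, 476 and 423, adjusted p = 0.321, limma). With each library omitted in turn, 1 to 6 genes of this list fell. Notch receptors and Heyl are also active in mural cells, whose marker sums, given below, were lower with loss, and their part in this result was not tested.

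Factors of the cardiac and mesenchymal lineage held more falls than rises, but the list did not shift clearly as a whole. Their median log2 difference was -0.09, with 15 of 38 above 0. By library the medians overlapped, at -0.08, -0.01 and 0.08 in the controls and -0.12, -0.07 and -0.02 with loss. Of 38 tested, 4 fell, the zinc-finger factors Peg3, Osr1 and Zeb1 and the HMG-box factor Sox9, and 1 rose, the homeobox factor Meox1. Sox9 stood at 4686, 5289 and 5423 against 3661, 3915 and 3516 (log2 difference -0.47, adjusted p = 0.0276, limma). Peg3, an imprinted gene, stood at 3908, 4364 and 4905 against 2722, 2363 and 3024 (log2 difference -0.70, adjusted p = 0.0209, limma). Meox1 stood at 4789, 5280 and 5706 against 9098, 8337 and 6861 (log2 difference 0.62, adjusted p = 0.0284, limma), the reverse of the other 4. The core cardiac factors Gata4 and Tbx20 had adjusted p of 0.616 and 0.398 (limma). Across the 6 leave-one-out fits, 0 to 4 of the list fell.

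**Figure D3:**
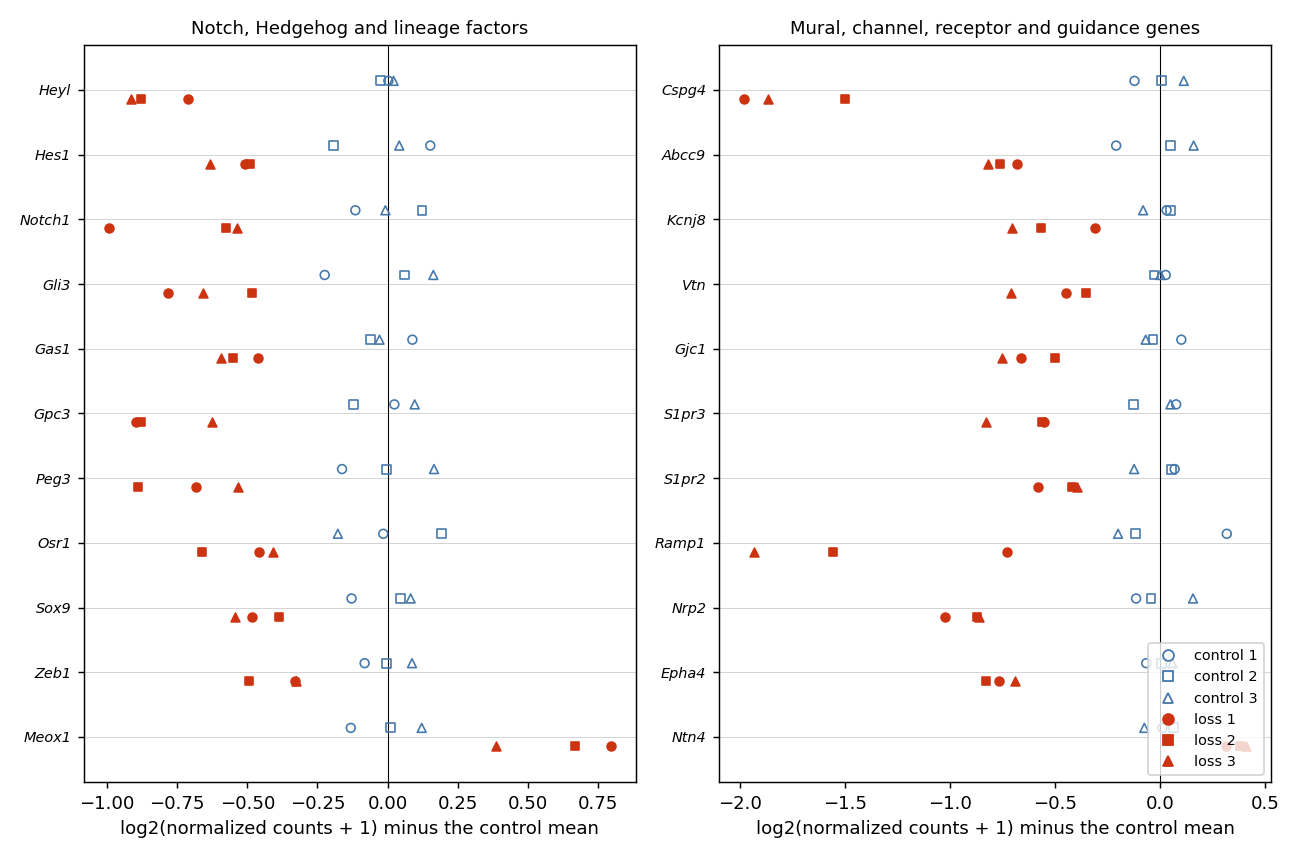
Called genes of the Notch, Hedgehog and lineage lists (left) and of the mural, channel, receptor and guidance lists (right), by library, as log2(normalized counts + 1) minus the mean of the 3 controls. Open blue symbols are controls and filled red symbols loss libraries; the shifts are mostly under 1 log2 unit on the left, and Meox1 and Ntn4 are the genes shown that rose.

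Ion channel genes and mural markers were lower together. Only 5 of 42 tested channel genes had a log2 difference above 0, the median was -0.27, and 3 fell and 0 rose at the limma threshold. The falls were Abcc9 and Kcnj8, which form an ATP-sensitive potassium channel, and the connexin Gjc1. Abcc9 stood at 3600, 4303 and 4648 in the controls and at 2593, 2457 and 2362 with loss (log2 difference -0.75, SE 0.10, adjusted p = 0.00968, limma). Kcnj8 stood at 2709, 2743 and 2507 against 2141, 1787 and 1626 (log2 difference -0.53, adjusted p = 0.0413, limma). Both genes are also markers of pericytes and other mural cells. The list of 18 mural markers had 4 falls (Cspg4, Abcc9, Kcnj8 and Vtn), 0 rises, a median log2 difference of -0.40 and 2 members above 0. The pericyte proteoglycan Cspg4 fell most, from 707, 774 and 832 to 195, 272 and 211 (log2 difference -1.78, SE 0.17, adjusted p = 0.00137, limma; all 6 leave-one-out fits). The mural marker Rgs5 stood at 2856, 3478 and 3023 against 2463, 1208 and 1171 and did not pass (adjusted p = 0.0593, limma). The summed level of the mural list was 54173 to 58306 in the controls and 46075 to 49026 with loss, or 0.121% to 0.154% of all libraries' totals, and its part in the channel results was not tested. When each library was left out in turn, 1 to 5 mural markers and 0 to 3 channel genes fell. In bulk libraries, fewer cells of a type and less RNA per cell cannot be told apart.

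Receptors for hormones, transmitters and lysophospholipids held several falls. Of 39 tested, 5 fell (Gabra3, S1pr3, S1pr2, Ramp1 and Gabre). The sphingosine-1-phosphate receptors S1pr3 (11773, 10229 and 11553 against 7626, 7577 and 6290) and S1pr2 (7981, 7895 and 6984 against 5085, 5681 and 5783) fell by 0.65 and 0.47 on the log2 scale, with adjusted p of 0.0141 and 0.0282 (limma). Gabre, another GABA receptor subunit on the X chromosome, fell with Gabra3, from 99.4, 75.2 and 69.5 to 26.6, 26.1 and 30.1 (log2 difference -1.51, adjusted p = 0.0488, limma; 1 of 6 leave-one-out fits). Agtr1a, the main angiotensin II receptor, spread widely with loss (293, 555 and 838) around the controls (485, 518 and 502) and did not pass (adjusted p = 0.961, limma). With each library omitted in turn, 1 to 8 of the receptor genes fell. Among 43 guidance genes the semaphorin co-receptor Nrp2 and the ephrin receptor Epha4 fell by 0.92 and 0.76 on the log2 scale (adjusted p of 0.0137 and 0.0168, limma), and the netrin Ntn4 rose by 0.37 (adjusted p = 0.0346, limma).

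Among genes of resting fibroblast identity, Pdgfra, the receptor that marks fibroblasts, stood at 49540, 54357 and 55763 against 51127, 53838 and 54376, and Dcn stood at 731166, 689348 and 716941 against 825317, 799288 and 769431. Neither passed, with adjusted p of 0.995 and 0.518 (limma). Of 22 resting fibroblast genes, 2 fell (Tcf21 and Gas1) and 0 rose, and of 12 fibroblast markers only Tcf21 passed. The marker list made up 10.2% to 11.9% of each library's total. Of 21 adventitial genes, 2 rose and 1 fell: Pi16, a marker of adventitial and universal fibroblasts, stood at 72403, 69652 and 60852 against 111169, 101752 and 87812 (log2 difference 0.56, adjusted p = 0.0366, limma), Clec3b (9585, 8570 and 8158 against 12623, 13886 and 12088) rose by 0.55 and Plac9 fell by 0.88.

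Genes of the activated state rose in part. Of 25 tested, 3 rose (Comp, Sfrp2 and Meox1) and 0 fell, 20 had a log2 difference above 0, and the median was 0.50. Comp, a cartilage matrix protein found in scars, stood at 3187, 3888 and 4273 against 8929, 7663 and 7544 (log2 difference 1.09, SE 0.12, adjusted p = 0.00319, limma; all 6 leave-one-out fits). Sfrp2, a secreted Wnt modulator, stood at 3156, 3065 and 4074 against 6848, 7210 and 11995 (log2 difference 1.30, adjusted p = 0.0159, limma). Postn, the standard marker of activated fibroblasts, did not pass (19642, 21094 and 28346 against 30968, 20580 and 36969, adjusted p = 0.397, limma), and neither did Cthrc1, whose loss values ranged from 82.7 to 723. Of 22 contractile genes 1 fell (Tpm1) and 0 rose, and 0 of 24 Srf and Yap targets passed in limma. At an unadjusted p below 0.05 there were 5 such targets, against 3290 of all 15544 genes tested. The loss-library medians of the activated list were uneven, as the plot of list medians shows, and the number of its members that rose ran from 1 to 6 when 1 library was left out.

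**Figure D4:**
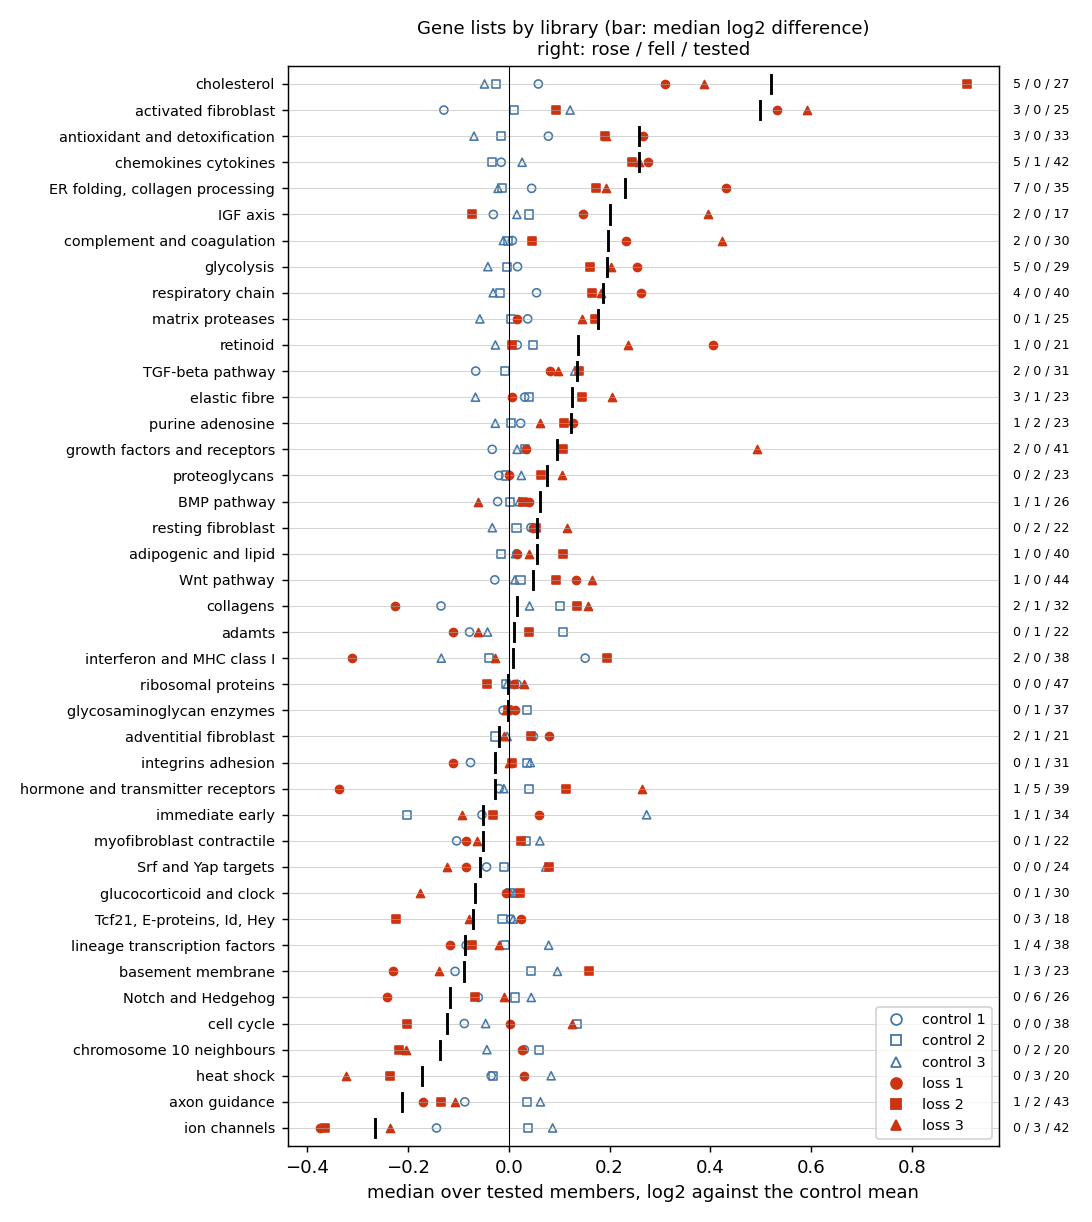
Median over the tested members of each of 41 gene lists, by library, as log2(normalized counts + 1) minus the mean of the 3 controls (open blue: controls; filled red: loss). The black bar is the median log2 difference of the list, and the figures at the right give how many members rose, fell and were tested; cholesterol genes lie highest and ion channels lowest.

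Matrix genes changed in both directions. Elastin (Eln), the core of elastic fibres, fell from 25104, 30097 and 22280 to 9613, 9021 and 12369 (2.5-fold, log2 difference -1.32, SE 0.14, adjusted p = 0.00294, limma; all 6 leave-one-out fits). In the same elastic fibre list of 23 genes, the fibulins Fbln5, Fbln7 and Efemp2 rose by 0.56, 1.42 and 0.46 on the log2 scale (adjusted p of 0.0413, 0.0141 and 0.0368, limma). These calls were less stable than that of Eln: Fbln5 and Efemp2 passed in 1 and Fbln7 in 3 of the 6 leave-one-out fits, in which 0 to 4 genes of the list rose. Fbln5 stood at 43399, 39113 and 40971 against 51131, 61403 and 70326, with every loss library above every control, while for Eln every loss library was below. Fibrillin 1 (Fbn1) did not pass (adjusted p = 0.35, limma).

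Of 32 collagen genes, 2 rose (Col8a2 and Col28a1) and 1 fell (Col4a5). Col28a1 was low, at 0.96, 3.34 and 1.14 against 41.9, 19.0 and 27.9. It reached the minimum mean of 10 only through the loss libraries, and it passed in 0 of 6 leave-one-out fits. The main fibrillar chains did not pass, with Col1a1 at 88859, 105420 and 100352 against 98900, 91277 and 118101 (adjusted p = 0.808, limma). Basement membrane genes held 3 falls and 1 rise among 23: the laminin chain Lama4 fell from 38348, 41414 and 45664 to 24913, 32246 and 24578 (log2 difference -0.63, adjusted p = 0.0309, limma), and Egflam, which links dystroglycan to matrix, fell from 840, 884 and 984 to 278, 393 and 420 (log2 difference -1.33, SE 0.17, adjusted p = 0.00766, limma). Lama5 fell at a low level (17.6, 52.6 and 25.5 against 2.13, 1.85 and 1.85) and reached the minimum mean of 10 only through the controls. Ntn4 was the rise. The adhesion receptor Vcam1 fell by 0.50 (12168, 13565 and 14127 against 8709, 9331 and 10101, adjusted p = 0.0239, limma), the single call among 31 integrins and adhesion genes. Of 22 Adamts genes Adamts12 fell, of 37 glycosaminoglycan enzymes Hs3st1 fell, and of 23 proteoglycans Cspg4 and Gpc3 fell, with 0 rises in the 3 lists.

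Genes of the chemokine and cytokine list, which also holds the prostaglandin synthase Ptges, were mostly higher. Of its 42 tested genes, 5 rose and 1 fell, and 33 had a log2 difference above 0, with a median of 0.26 for the list. The eosinophil chemokine Ccl11 stood at 3161, 3609 and 3444 against 7363, 7580 and 6879 (2.14-fold, log2 difference 1.10, SE 0.08, adjusted p = 0.000358, limma). The alarmin Il33 stood at 3195, 3068 and 3469 against 5859, 6372 and 5234 (log2 difference 0.84, SE 0.09, adjusted p = 0.00378, limma). Both passed in all 6 leave-one-out fits, with tight groups. The enzyme gene Ptges and the chemokines Cx3cl1 and Cxcl12 rose by 0.60, 0.60 and 0.54 on the log2 scale and passed in 2 or 3 such fits each. Cxcl9, a chemokine induced by interferon gamma, was listed at 0 in all 3 loss libraries against 26.9, 13 and 34.3. It thus reached the minimum mean of 10 only through the controls. Il6 did not pass (adjusted p = 0.351, limma). Across the 6 leave-one-out fits, 2 to 8 genes of the list rose.

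The complement list of 30 and the interferon and class I list of 38 each held 2 rises and 0 falls. Their medians were 0.20 and 0.01, with 19 members above 0 in each. At an unadjusted p below 0.05 the interferon list had 4 genes higher and 6 lower (1578 and 1712 of all 15544 genes tested). F3, the tissue factor that starts coagulation, stood at 5024, 4498 and 5834 against 8809, 11404 and 9518 (log2 difference 0.95, SE 0.12, adjusted p = 0.0072, limma). Clu, the chaperone clusterin, rose by 0.81. Ifi27, a mitochondrial protein induced by interferon, stood at 6633, 6014 and 6003 against 12104, 12160 and 10868 (log2 difference 0.91, SE 0.08, adjusted p = 0.000895, limma), while Isg15 did not pass (adjusted p = 0.147, limma). H2-T23 rose by 1.10 (adjusted p = 0.0387, limma), and, as for H2-Bl, its reads may be shared with related class I genes. The summed myeloid markers were 1879 to 2141 in the controls and 2150 to 3352 with loss, and 0 of 16 passed in limma. At an unadjusted p below 0.05 there was 1, against 3290 of all 15544 genes tested. Their part in the immune results was not tested.

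In the TGF-beta list of 31, the co-receptor Eng and the ligand Gdf10 rose by 0.48 and 0.91 on the log2 scale (adjusted p of 0.0461 and 0.0387, limma), and Tgfb1 did not pass (785, 700 and 790 against 1370, 990 and 859, adjusted p = 0.152, limma). In the BMP list of 26, the antagonist Nbl1 rose from 8995, 8460 and 9281 to 13661, 14180 and 13253 (log2 difference 0.62, SE 0.07, adjusted p = 0.00434, limma; all 6 leave-one-out fits), and the signal transducer Smad1 fell from 2306, 2231 and 2257 to 1557, 1535 and 1739 (log2 difference -0.49, adjusted p = 0.0244, limma). Nbl1 and Smad1 thus separated the groups cleanly in opposite directions. In the Wnt list of 44 only Sfrp2 passed, and in the retinoid list of 21 only Rarres2, the adipokine chemerin. Angptl7 and Fgf16 rose among 41 growth factor and receptor genes, and the desaturase Scd2 among 40 adipogenic and lipid genes, with 0 falls in either.

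Sterol genes lay higher with loss. Sterol synthesis and transport had the highest median of the 41 program lists, at 0.52, with 26 of 27 genes above 0, 5 that rose (Stard4, Dhcr7, Idi1, Hsd17b7 and Fdps) and 0 that fell. Stard4, a cholesterol carrier, stood at 203, 192 and 181 against 497, 659 and 582 (3.02-fold, log2 difference 1.58, SE 0.17, adjusted p = 0.00276, limma; all 6 leave-one-out fits). When each library was left out in turn, 1 to 10 genes of the sterol list rose.

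Endoplasmic reticulum folding and collagen processing held 7 rises and 0 falls among 35 genes (median 0.23). Serpinh1, the collagen chaperone, stood at 63853, 62039 and 54731 against 113911, 84825 and 88323 (log2 difference 0.66, SE 0.13, adjusted p = 0.0309, limma), and Pdia4, a disulfide isomerase, at 7502, 6785 and 6773 against 16402, 11486 and 11998 (log2 difference 0.90, adjusted p = 0.0109, limma). Loss library 1 was highest for Serpinh1, Pdia4 and Calr, and for Hspa5, the master chaperone, it alone stood apart (80792, against 38679 to 46165 in the other 5). Hspa5 did not pass (adjusted p = 0.62, limma). With each library omitted in turn, 0 to 10 genes of this list rose, and 10 rose without loss library 1.

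Respiratory chain genes lay slightly higher with loss. All 40 tested respiratory chain genes had a log2 difference above 0 (median 0.19), and 39 of 40 were above 0 after quantile normalization. In 26 of them every loss library was above every control, as in 14.1% of all genes tested. At the limma threshold 4 rose (Ndufa1, Uqcrq, Ndufb8 and Ndufb9). Ndufa1, a complex I subunit, stood at 1644, 1503 and 1410 against 2340, 2436 and 2658 (log2 difference 0.71, SE 0.10, adjusted p = 0.00873, limma). Of 29 glycolysis genes 5 rose and 0 fell, among them Aldoa and Gapdh, each by 0.43, genes with many pseudogene copies. Of 33 antioxidant genes 3 rose (Aox3, Gstt1 and Gpx4), 0 fell and 27 were above 0. Ribosomal proteins had a median log2 difference of -0.00069 with 0 of 47 called by limma. At an unadjusted p below 0.05 there were 12 of them, against 3290 of all 15544 genes tested. Across the 6 leave-one-out fits, 0 to 4 respiratory chain genes and 0 to 7 glycolysis genes rose.

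Cytosolic chaperones lay lower in loss libraries 2 and 3. Over the 20 heat shock genes tested, the medians against the control mean were 0.03, -0.24 and -0.32 in loss libraries 1, 2 and 3. In the controls they were -0.03, -0.03 and 0.08, so loss library 1 lay within the control range. Hspa8, the constitutive Hsc70, was the most abundant gene that fell, at 47545, 46896 and 51124 against 34373, 29398 and 28655 (log2 difference -0.66, SE 0.09, adjusted p = 0.00952, limma; 5 of 6 leave-one-out fits). Hsph1 and Dnaja1, its co-chaperones, fell by 0.98 and 0.45, so 3 of 20 heat shock genes fell and 0 rose (median -0.17). Hsph1 passed in 2 and Dnaja1 in 1 of the leave-one-out fits, in which 0 to 4 heat shock genes fell. Among 34 immediate-early genes, which respond to cell isolation, Nr4a1 fell (35487, 25867 and 36589 against 20786, 16221 and 16843) and Pim1 rose, while Fos and Jun had adjusted p of 0.776 and 0.825 (limma). Per2, a clock repressor, fell from 946, 848 and 905 to 574, 266 and 281 (log2 difference -1.36, adjusted p = 0.0343, limma; 1 of 6 leave-one-out fits). Of 38 cell cycle genes 0 passed in limma, and 4 had an unadjusted p below 0.05 (3290 of all 15544 genes tested).

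Markers of other heart cells were low in all libraries, and a few of them moved. The summed endocardial markers were 3471, 4375.7 and 3780 in the controls and 8474, 8791 and 6640 with loss. The most abundant of these markers was Cytl1, a small secreted protein, which rose from 1683, 2494 and 1909 to 6403, 5991 and 4029 (log2 difference 1.42, SE 0.19, adjusted p = 0.00873, limma). Plvap, a protein of endothelial fenestrae, rose from 365, 323 and 271 to 826, 830 and 862 (log2 difference 1.40, SE 0.15, adjusted p = 0.00269, limma; all 6 leave-one-out fits). Endothelial markers did not move as one. Aqp1, a water channel, stood at 184, 146 and 174 against 353, 288 and 475 and rose by 1.12 on the log2 scale (adjusted p = 0.0368, limma), and Pecam1 stood at 134, 137 and 104 against 290, 123 and 159 without passing (adjusted p = 0.398, limma). Cdh5, under the level tested, was listed at 10.2, 12.9 and 11.1 in the controls and at 0 in all 3 loss libraries, and the endocardial marker Npr3 stood at 105, 108 and 102 against 53.0, 62.1 and 53.9 (adjusted p = 0.107, limma). The part of endocardial or endothelial RNA in other results was not tested.

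Of 11 tested endothelial markers 2 rose (Aqp1 and Eng) and 0 fell, with 4 above 0 and a median of -0.26. At an unadjusted p below 0.05 (limma), 2 of the 11 were higher and 5 lower with loss. None of 15 cardiomyocyte markers passed in limma, and 1 had an unadjusted p below 0.05. Over all 15544 genes tested, 3290 did. Erythroid and platelet markers summed to 263 to 299 in the controls and to 1199, 470 and 374 with loss. Loss library 1 is the highest there, with Hba-a1 at 392 against 82.2 and 3.07 in the other loss libraries. Few Schwann (5), lymphoid (1), adipocyte (1) and mesothelial (0) markers reached the level tested, and 0 of them passed in limma (1 at an unadjusted p below 0.05, a Schwann marker). Of the 6 tested erythroid and platelet genes 0 passed in limma, also at an unadjusted p below 0.05, where the count was 0, and the part of red cell RNA in other results was not tested.

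**Figure D5:**
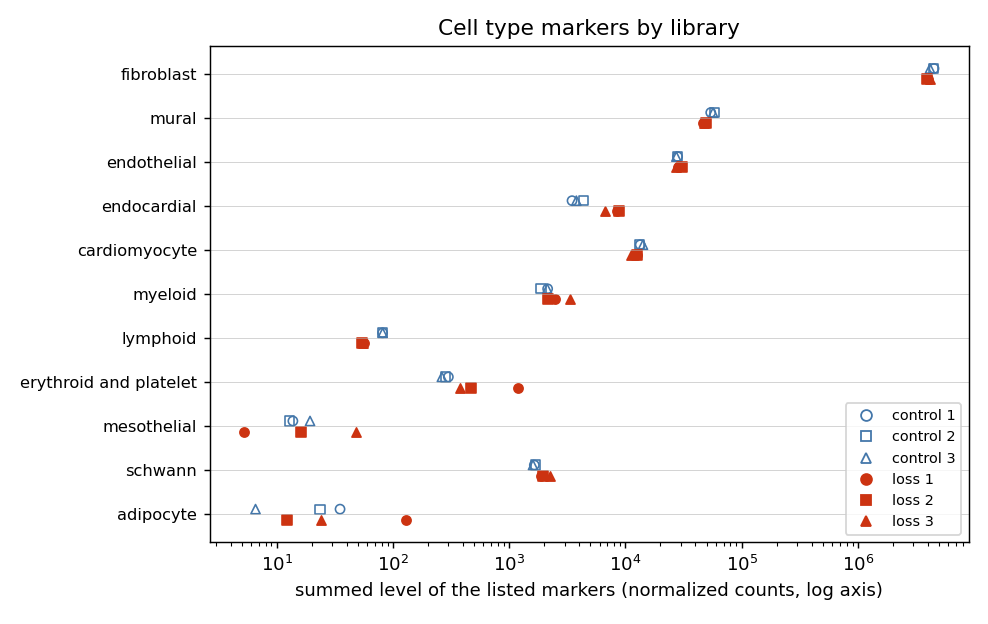
Summed level of each list of cell type markers (horizontal, normalized counts, log axis) in the 3 control libraries (open blue) and the 3 loss libraries (filled red). Fibroblast markers exceed every other list in each library. Endocardial sums are higher with loss (6640 to 8791 against 3471 to 4375.7) and mural sums lower (46075 to 49026 against 54173 to 58306). Most of the endocardial difference is Cytl1 (mean 5475 against 2029), while Npr3 is lower with loss (56.3 against 105).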

How the data were processed

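The deposited table holds normalized counts per gene, a signal that is not whole-numbered; the submitters' processing notes name kallisto, DESeq2 and GRCm38, with no roles or versions, so it is taken as the authors' normalized signal and no count model was used. Libraries were grouped by their labels (3 control, 3 loss). A linear model was fitted to log2(value + 1) in R 4.3.3 using limma 3.58.1 with a variance trend (two-sided moderated test), over the 15544 of 18634 genes with a mean of at least 10, and p-values were adjusted by Benjamini-Hochberg at 0.05. The fit was tested on simulated data. Sequencing depth is unknown, since the totals (37746463 to 38970531) are normalized, so no counting interval is given.

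Named genes are the 15 largest called rises and 15 largest called falls at a mean of at least 50 with a standard symbol, the first 2 and up to 8 called members of each of 52 lists (41 programs, 11 markers), the 10 called genes of highest mean, and the factors paired with Tcf21; others are said to be named after their values were seen. Some genes that this rule names are not reported here. The genes and lists were chosen with earlier results of these data known. Replicate numbers were treated as not pairing the libraries, since same-numbered deviations correlated at 0.025, -0.054 and -0.042. Coordinates are from GENCODE M21 (GRCm38), with 89.8% of tested symbols matched. Alternatives varied the pseudocount, filter, scaling, variance model and library weights and left out each library.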

Additional observations from a re-analysis of the deposited data

How the results depend on the processing

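The call count stayed within 1.5 times of 557 under other pseudocounts, filters, scalings and robust variance estimates, and with weights per group (604, chosen after seeing the data); it ran from 508 without the filter to 703 at a mean of at least 50. It moved further in 3 settings, and the cause was not tested. Without the variance trend, 94 genes passed (36 rose, 58 fell), of which 79 were among the 557. With weights per library, 949 passed (429 rose, 520 fell), including 547 of the 557. With a replicate block, 227 passed (102 rose, 125 fell), 214 of them shared, although the numbers do not pair the libraries. Leaving out 1 library gave 88 to 891 calls, with 49 to 404 rises and 38 to 487 falls. Tcf21 passed in every setting run. Of the 127 named genes that were called, 29 passed in all 6 leave-one-out fits, 42 in 3 to 5 and 56 in fewer than 3, and 0 reversed in any setting. Of 882 list medians recomputed for 49 lists, 820 moved by less than the spread of the libraries and 62 by more. Depth cannot be read from normalized values, and 3 libraries a group limit what can be called.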

Other observations

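Further genes with high levels were called outside the groups described above. Serpinf1, the secreted pigment epithelium-derived factor, stood at 50399, 50730 and 46038 in the controls and at 65960, 67248 and 73682 with loss (log2 difference 0.49, adjusted p = 0.0236, limma). Cp, the copper ferroxidase ceruloplasmin, stood at 33334, 34861 and 39010 against 50954, 52098 and 56826 (log2 difference 0.58, adjusted p = 0.0144, limma). The lysosomal protease Ctsd stood at 26875, 25509 and 23796 against 33450, 34618 and 37815 (log2 difference 0.47, adjusted p = 0.0239, limma). In each of the 3, every loss library lay above every control.

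Aox3, an aldehyde oxidase of the molybdenum cofactor family to which Xdh also belongs, rose while Xdh fell: it stood at 680, 663 and 494 against 1371, 1135 and 1174 (2-fold, log2 difference 1.01, SE 0.15, adjusted p = 0.0132, limma), and it passed in all 6 fits that leave out 1 library. Fgf16, a growth factor of the heart on the X chromosome, stood at 345, 422 and 297 against 591, 572 and 762 (log2 difference 0.86, adjusted p = 0.0412, limma) and passed in 1 of 6 such fits. Gimap9 (25.5, 25.8 and 30.7 against 185, 113 and 156) and Gimap6, named after its values were seen (99.7, 83.4 and 105 against 183, 244 and 299), GTPases best known from lymphocytes, both rose, by 2.40 and 1.30 on the log2 scale, and lie in a family with shared sequence. Of 12 lymphoid markers 3 are in the table, and the 1 tested, Cd3d, did not pass (58.3, 68.4 and 70.1 against 45.4, 50.2 and 44.9, adjusted p = 0.412, limma); the part of lymphocyte RNA was not tested.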
